A study of Mus musculus with 21 samples.

Results

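The genes described here are 9 regulators of the Bcl2 family, taken by their names from a deposited table of 23713 genes: Bcl2, Bcl2l1, Mcl1, Bcl2l11, Bax, Bak1, Bid, Bbc3 and Pmaip1. All 9 were found, and all 9 passed the filter on low counts in each comparison, the lowest count of any of them in a library being 28. RNA was sequenced in bulk from keratinocytes, the epithelial cells of the epidermis, scraped from the tail skin of mice. In 3 mouse models of basal cell carcinoma (BCC), a skin tumour driven by Hedgehog signalling, named SmoM2, Gnas-eKO and PKI, 4 tumour-bearing (BCC) and 3 tumour-free control (Con) libraries were made, 21 in all. SmoM2 mice were sampled on day 29 after tumour induction and formed batch A, Gnas-eKO mice on day 42 formed batch B, and PKI mice on day 57 formed batch C. Model, day and batch therefore cannot be told apart, while Con and BCC of a model share a batch. The name SmoM2 stands for a constitutively active Smoothened, the membrane protein that turns on Hedgehog signalling. Gnas is the gene of the G protein subunit that stimulates cAMP production and thereby protein kinase A, and PKI commonly names a peptide that inhibits this kinase. The promoter or Cre driving each model, the strain, the age and the genotype of the controls are not given in the sources used here. In the file headers, animal names of SmoM2 BCC carry another prefix than those of SmoM2 Con, so tumour and origin of the mice cannot be told apart in that model.

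Proteins of the Bcl2 family decide whether the outer membrane of mitochondria is opened, the step at which a cell commits to the intrinsic pathway of apoptosis. Bax and Bak1 are the effectors that form the pores, and Bcl2, Bcl2l1 (the gene of Bcl-xL) and Mcl1 hold them in check. The BH3-only proteins, here Bid, Bcl2l11 (Bim), Bbc3 (Puma) and Pmaip1 (Noxa), sense damage or loss of survival signals and either block the protective members or activate the effectors. In skin, Bcl2 is found in the basal layer and in hair follicle epithelium and is a known marker of basal cell carcinoma.

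Library totals were 16645858 to 22251132 estimated counts. The 8 keratinocyte markers, among them Krt5 and Krt14, summed to between 30900 and 76040 CPM (counts scaled to the library's size) in every library, and none was at 0. Gnas, which checks the Gnas-eKO label, had 178, 174 and 172 CPM in Gnas-eKO Con and 115, 89.5, 51.2 and 65.6 CPM in Gnas-eKO BCC replicates 1 to 4. Gnas-eKO BCC replicate 2 stood apart by Gli1, a Hedgehog target, which had 9.65 CPM there, within the Con values of 4.75 to 9.96 CPM. BCC replicates 1, 3 and 4 had 235, 281 and 154 CPM of Gli1. Ptch1, another Hedgehog target, was above Con in replicate 2, at 270.5 CPM against 30.0 to 39.0 CPM. It had 933, 315 and 827 CPM in BCC replicates 1, 3 and 4. Replicates are separate libraries with their own animal names in the headers, and p-values measure the spread between them.

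The first result concerns Bcl2, the founding protective member, which rose in SmoM2 but was not called in PKI. Upstream sequence is shown for Bcl2, Bid and Bax, which changed in at least 1 model and have a single RefSeq start with bases outside annotated exons before it. Bbc3, with 3 starts, is not shown. The Bcl2 and Bax windows are the 250 bases before the start, and the Bid window leaves out the last 29 of these, which lie in an annotated exon and cut off 1 of its 3 GC boxes. All are written 5′ to 3′ on the gene's strand (minus for all 3, build GRCm38.p6), and carry GC boxes (GGGCGG, either strand) in capitals. They are chr1:106714291-106714540 for Bcl2, chr6:120916854-120917074 for Bid and chr7:45466899-45467148 for Bax.
Bcl2: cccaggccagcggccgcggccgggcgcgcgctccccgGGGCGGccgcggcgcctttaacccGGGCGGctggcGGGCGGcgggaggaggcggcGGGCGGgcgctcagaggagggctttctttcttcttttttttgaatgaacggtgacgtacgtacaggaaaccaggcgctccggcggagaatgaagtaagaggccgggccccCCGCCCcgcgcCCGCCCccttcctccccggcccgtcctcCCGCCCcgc
Bid: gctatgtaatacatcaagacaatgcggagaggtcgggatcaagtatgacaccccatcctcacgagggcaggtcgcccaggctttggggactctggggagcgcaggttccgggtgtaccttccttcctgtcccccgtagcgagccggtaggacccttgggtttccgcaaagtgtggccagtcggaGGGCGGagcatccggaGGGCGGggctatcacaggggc
Bax: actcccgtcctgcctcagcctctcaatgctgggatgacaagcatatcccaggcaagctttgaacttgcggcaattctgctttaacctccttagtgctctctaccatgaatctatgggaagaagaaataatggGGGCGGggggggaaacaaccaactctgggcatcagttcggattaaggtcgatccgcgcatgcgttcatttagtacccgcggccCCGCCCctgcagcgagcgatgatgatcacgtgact
The Bcl2 window held 7 GC boxes and 74.8% G or C, the Bid window 2 and 62.4%, and the Bax window 2 and 54%. At least 1 GC box was found in 32.7% of 32851 such windows of 250 bases, whose median G or C content was 52.4%. None of the 13 windows of the 8 members searched held a GLI site (GACCACCCA, in 0.225% of all windows), a cAMP response element (TGACGTCA, 1.55%) or an AP-1 site (TGANTCA, 6.75%), on either strand. With no other motif present, the GC boxes overlapped none of them. A missing match says only that these letters are not in the window.

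Before the changes, the levels per length give the makeup of the family in control epidermis. Mcl1 had by far the highest length-scaled level, 71.2 ± 5.72 CPM per kb of exon (SD over the 9 Con libraries of the 3 batches). Bak1 followed with 10.9 ± 0.539, Bax with 10.7 ± 0.697 and Bcl2l1 with 9.42 ± 0.753 CPM per kb, and the ranges of these neighbours overlapped. Bbc3 lay below them at 6.74 ± 0.896 CPM per kb. The last 4 were Bcl2l11 at 2.07 ± 0.329, Bcl2 at 1.80 ± 0.258, Pmaip1 at 1.57 ± 0.765 and Bid at 1.15 ± 0.288 CPM per kb, again with overlapping ranges. The length is that of all annotated exons merged, and counts per gene do not separate splice forms, so the long and short forms of Bcl2l1, Mcl1 and Bcl2l11, which differ in their action, are summed.

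**Figure D1:**
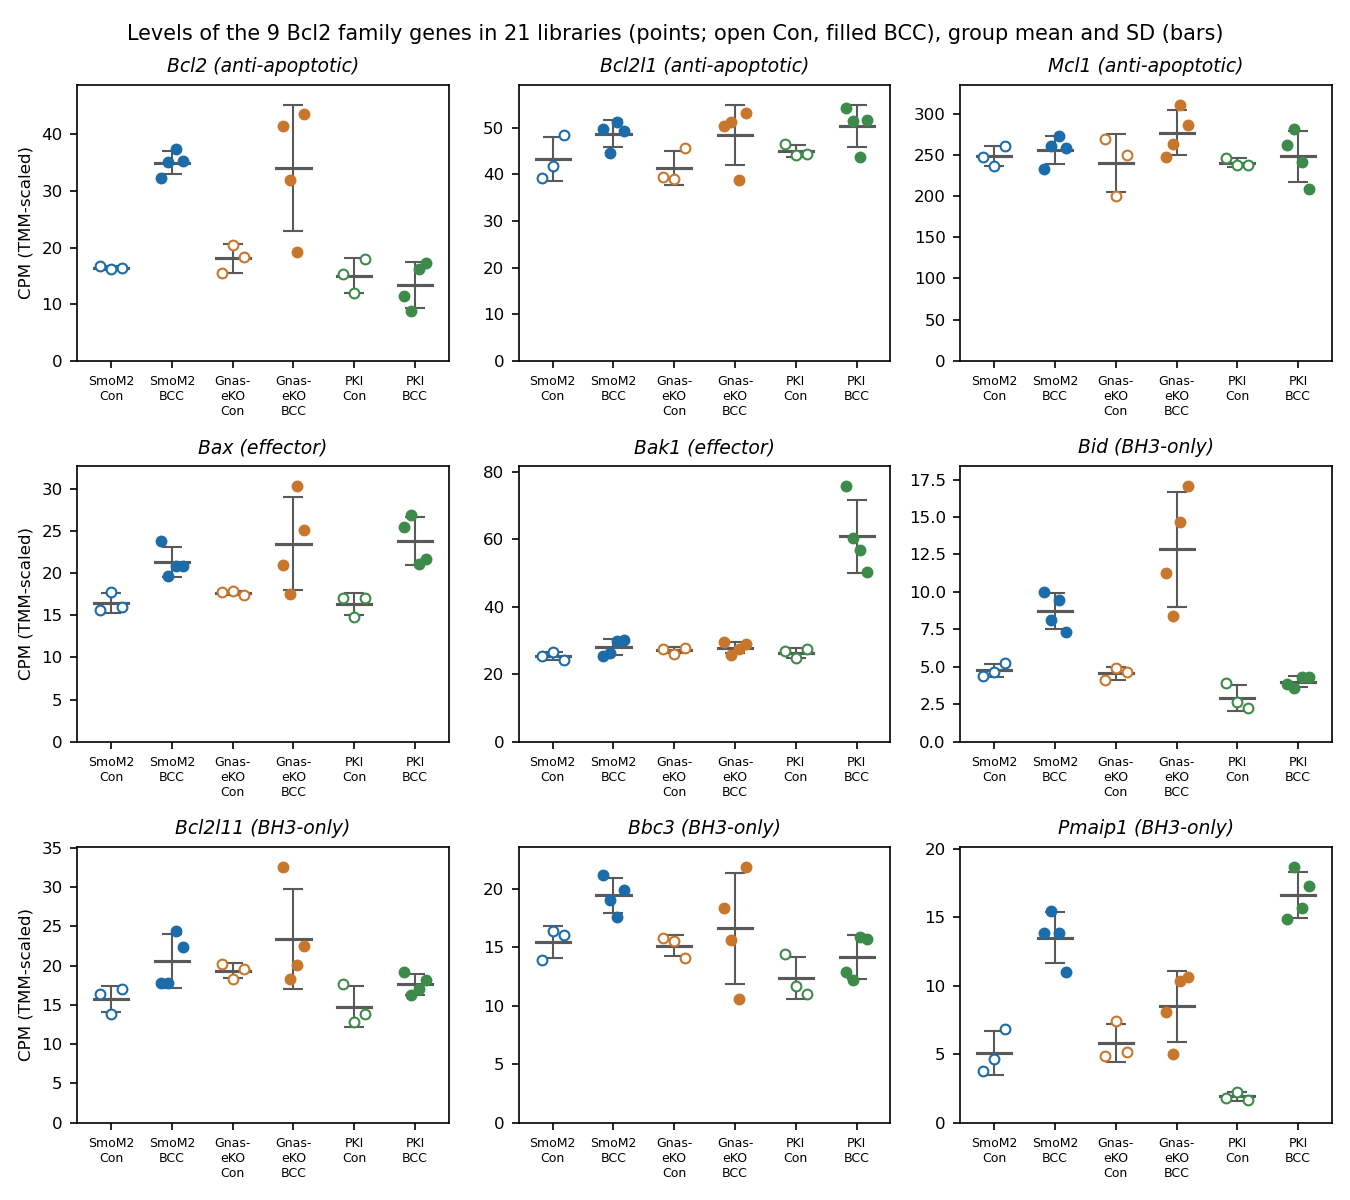
CPM of each of the 9 genes (y axis, from 0) in the 6 groups (x axis), with 1 point per library, open for Con and filled for BCC, and bars for the group mean and SD. Bcl2 was high in SmoM2 BCC (32.2 to 37.4 CPM), while Bak1 (50.4 to 75.9 CPM) was high in PKI BCC alone among the 6 groups.

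In SmoM2, 5 of the 9 members were called higher in BCC than in Con at an edgeR adjusted p under 0.05, the threshold used throughout: Bcl2, Pmaip1, Bid, Bax and Bbc3. None was lower, and all 9 estimates were above 0. Of all 16370 genes tested in SmoM2, 16.2% were called higher and 13.5% lower. The 4 BCC libraries lay above the 3 Con libraries for 6 members, as they did for 19.6% of all genes. The median log2 fold change (log2 change from here on) was 0.39 over the members and 0.00054 over all genes. In Gnas-eKO 1 of 9 was called higher, Bid, against 1.46% higher and 0.165% lower of 16409 genes, and the median was 0.28 against 0.02 over all genes. That background rests on single libraries: of all genes, 267 were called in Gnas-eKO, and without 1 library 0 (Con replicate 1 or 2), 4 (Con 3), 38 (BCC 1), 1910 (BCC 2), 291 (BCC 3) or 59 (BCC 4). In PKI 3 of 9 were called higher, Pmaip1, Bak1 and Bax, against 18.7% higher and 15.8% lower of 16397 genes, and the median was 0.27 against −0.0012. Groups did not overlap, with BCC above, for Bid in Gnas-eKO (9.98% of all genes) and for those 3 members in PKI (22.4%). No member was called in all 3 models, and 141 of the 15640 genes tested in every model were called higher in each. Members were proposed with results of these data known, and the counts are read as a description.

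**Figure D2:**
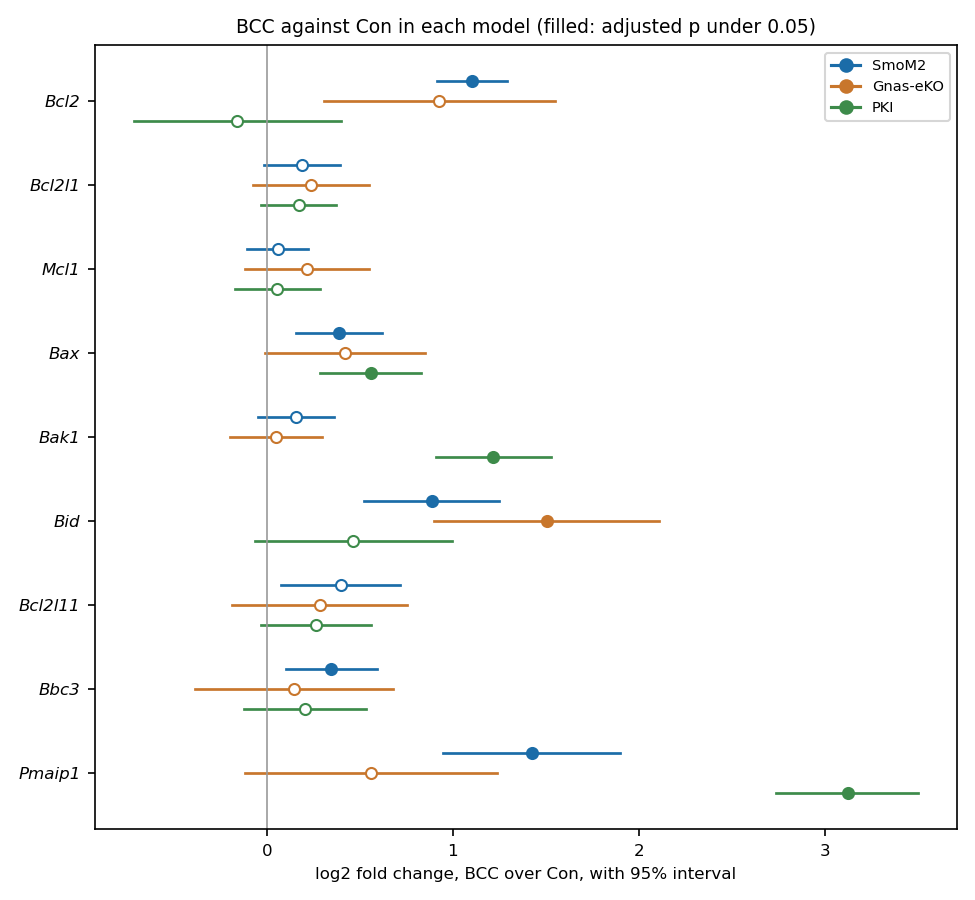
Log2 fold change of BCC over Con (x axis) for each gene (y axis) and model (colour), with its 95% interval, filled where the edgeR adjusted p was under 0.05. Bcl2 lay near 1 in SmoM2 and Gnas-eKO and near 0 in PKI, and Pmaip1 reached 3.12 in PKI.

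Bcl2 (ENSMUSG00000057329.7, GRCm38 chromosome 1, 106538178 to 106714274, minus strand) had 16.8, 16.1 and 16.4 CPM in the SmoM2 Con libraries and 32.2, 35.2, 37.4 and 35.2 CPM in the SmoM2 BCC libraries. All 4 BCC libraries were high and close together, with no overlap. Its log2 change was 1.10 (SE 0.08, edgeR adjusted p 1.43e-05), a 2.15-fold rise. In Gnas-eKO Con it had 15.5, 20.4 and 18.3 CPM, and in Gnas-eKO BCC 41.6, 32.0, 19.3 and 43.6 CPM. BCC replicates 1, 2 and 4 lay above Con, and replicate 3 lay among the Con values. The log2 change was 0.93 (SE 0.27, 95% interval 0.31 to 1.55), with an edgeR adjusted p of 0.117 that did not pass. It passed without BCC replicate 3 (1.13, edgeR adjusted p 0.0284), and also with the DESeq2 Wald test on all 7 libraries (0.92, adjusted p 0.0246) and in one edgeR fit of all 21 libraries (0.92, adjusted p 0.014). Without BCC replicate 2, which stood apart by Gli1, it was 0.96 (edgeR adjusted p 0.0823).

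In PKI, Bcl2 had 15.2, 11.9 and 18.0 CPM in Con and 11.4, 8.72, 16.2 and 17.3 CPM in BCC. The groups overlapped widely, and PKI BCC replicate 2 was the lowest of the 21 libraries. The log2 change was −0.16 (95% interval −0.71 to 0.40, edgeR adjusted p 0.652). The effect in PKI was lower than in SmoM2 by 1.26 on the log2 scale (95% interval −1.84 to −0.68, edgeR adjusted p 0.00436), and this held in all 14 fits that each left out 1 library. Against Gnas-eKO the difference was −1.09 (95% interval −1.92 to −0.25), with an edgeR adjusted p of 0.0986 that did not pass. That difference passed without Gnas-eKO BCC replicate 3 (−1.28, edgeR adjusted p 0.0189). Gnas-eKO and SmoM2 differed by −0.17 for Bcl2 (95% interval −0.80 to 0.46, edgeR adjusted p 0.894), an interval that leaves room for a difference of either sign. The exons of Bcl2 overlap 558 bases of the antisense gene D630008O14Rik, and the library kit keeps the strand, but whether counting used it is not given in the sources used here.

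Bcl2 is also made in lymphocytes and melanocytes, so their markers are given beside it. In SmoM2 the 11 T cell markers summed to 118 to 152 CPM in Con and 55.2 to 72.7 CPM in BCC, and the 7 melanocyte markers to 133 to 222 CPM in Con and 126 to 182 CPM in BCC. The T cell sum was mostly Thy1, which fell from 120.7 ± 15.5 to 50.9 ± 6.59 CPM (SD, n = 3 and 4). Of the 6 other T cell markers tested, Trac was called higher and none lower. Trac, at 0.355 CPM in Con and 1.44 CPM in BCC, passed the low-count filter through BCC, so its call is a description. B and plasma cell markers summed to at most 1.57 CPM in any library. The 7 fibroblast markers, of which Col1a2, Dcn and Fbln1 were called higher, were at 41.0 to 56.6 CPM in SmoM2 Con and 438 to 578 CPM in SmoM2 BCC. Most of the BCC sum was Dcn, which went from 21.0 ± 7.95 to 439.6 ± 70.5 CPM (SD, n = 3 and 4). Col1a1, Col3a1, Pdgfra and Lum were not called there. In PKI the melanocyte sum was 169 to 220 CPM in Con and 83.3 to 133 CPM in BCC. No marker of these lists other than B cell ones was at 0 throughout a group, and the part of these cells in the Bcl2 values was not tested. In bulk samples fewer cells of a type and less RNA per cell cannot be told apart.

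The other protective members were not called in any model. Bcl2l1 (ENSMUSG00000007659.18, chromosome 2, 152780668 to 152831728) ranged from 39.0 to 48.5 CPM over the 9 Con libraries and from 38.9 to 54.2 CPM over the 12 BCC libraries. Its log2 changes in SmoM2, Gnas-eKO and PKI came to 0.19, 0.24 and 0.17 (edgeR adjusted p 0.152, 0.385 and 0.171). It passed in 1 of 7 fits that each left out a library in SmoM2 (0.28 without Con replicate 3, edgeR adjusted p 0.0445) and in PKI (0.24 without BCC replicate 3, edgeR adjusted p 0.0453). Mcl1 (ENSMUSG00000038612.16, chromosome 3, 95658788 to 95663176), whose short-lived protein is the target of Pmaip1, ranged from 201 to 270.1 CPM in Con and from 208 to 311 CPM in BCC. In the same order its log2 changes came to 0.06, 0.22 and 0.06 (edgeR adjusted p 0.599, 0.463 and 0.697). The 95% intervals, −0.10 to 0.22 in SmoM2 and −0.17 to 0.28 in PKI, bound the change of Mcl1 in those models, while that in Gnas-eKO reached 0.55.

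Of the effectors, Bak1 changed in PKI and Bax in SmoM2 and PKI. Bak1 (ENSMUSG00000057789.14, chromosome 17, 27019810 to 27029009) had 27.0, 24.7 and 27.6 CPM in PKI Con and 75.9, 60.4, 56.9 and 50.4 CPM in PKI BCC. Every PKI BCC library was above every other library of the study, the highest of which had 30.1 CPM. The log2 change was 1.22 (SE 0.14, edgeR adjusted p 0.000384), a 2.32-fold rise. In SmoM2 Bak1 had 25.3, 26.5 and 24.3 CPM in Con and 25.5, 26.5, 29.9 and 30.1 CPM in BCC. In Gnas-eKO it had 27.5, 26.1 and 27.8 CPM in Con and 29.6, 25.7, 27.4 and 28.9 CPM in BCC. The groups overlapped in both models, with log2 changes of 0.16 and 0.05 (edgeR adjusted p 0.235 and 0.839). The PKI effect exceeded that in SmoM2 by 1.06 (95% interval 0.71 to 1.42, edgeR adjusted p 0.000517) and that in Gnas-eKO by 1.17 (0.79 to 1.55, edgeR adjusted p 0.00259).

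Bak1 shares exon bases on the other strand with Ggnbp1, which had 2.08 to 3 CPM in PKI Con and 1.18 to 2.14 CPM in PKI BCC. Of 42 other genes tested within 1 Mb of Bak1, 9 were called higher and 9 lower in PKI, a share of 21.4% higher against 18.7% of all genes. Markers of several other cell types were higher in PKI BCC. The 7 Langerhans and dendritic cell markers summed to 126 to 261 CPM in PKI Con and 514 to 963 CPM in PKI BCC, and all 7 were called higher. The 11 T cell markers summed to 42.0 to 63.7 CPM in Con and 66.9 to 129 CPM in BCC, and 7 of the 10 tested were called higher. The 8 macrophage and monocyte markers summed to 6.25 to 13.9 CPM in Con and 32.0 to 65.5 CPM in BCC, with 6 called higher. The 7 fibroblast markers summed to 38.2 to 64.9 CPM in Con and 131 to 201 CPM in BCC, with Col3a1, Dcn, Lum and Fbln1 called higher. Of the neutrophil list, Cxcr2, the 1 gene tested, rose (log2 change 1.90, edgeR adjusted p 0.00887). Of the markers called in PKI, Trac, Cd2, Cd3d, Cd4, Ccr7, C1qa, C1qb, C1qc, Lyz2 and Lum had Con means of 0.0211 to 0.391 CPM. They passed the low-count filter through the BCC group where they are high, so their calls are a description. None of these T cell, dendritic cell, macrophage or fibroblast markers was at 0 throughout PKI Con or BCC, and the part of these cells in the rise of Bak1 was not tested.

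Bax (ENSMUSG00000003873.11, chromosome 7, 45461697 to 45466898) had 17.1, 14.8 and 17.1 CPM in PKI Con and 25.5, 26.9, 21.1 and 21.7 CPM in PKI BCC. Its log2 change there was 0.56 (SE 0.12, edgeR adjusted p 0.00694). In SmoM2 it had 15.6, 17.8 and 16.0 CPM in Con and 23.8, 19.6, 20.9 and 20.8 CPM in BCC, a log2 change of 0.39 (SE 0.10, edgeR adjusted p 0.0191). Both rises were modest, with BCC above Con in every library of both models. The SmoM2 call was lost without Con replicate 1, Con replicate 3 or BCC replicate 1 (log2 changes 0.35, 0.36 and 0.33, edgeR adjusted p 0.058, 0.0553 and 0.0534) and in the fit of all 21 libraries (0.37, adjusted p 0.0693). In Gnas-eKO, Bax had 17.8, 17.8 and 17.4 CPM in Con and 21.0, 17.6, 30.3 and 25.1 CPM in BCC. Replicate 2 lay among the Con values and replicate 3 was the highest of all 21 libraries. The log2 change was 0.42 (95% interval −0.01 to 0.85, edgeR adjusted p 0.263). The 3 differences between models for Bax lay between 0.04 and 0.17 and none passed (edgeR adjusted p 0.968, 0.447 and 0.75). A read-through gene on the same strand, Gm45808, which shares 192 exon bases with Bax, had at most 0.568 CPM in any library.

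Among the BH3-only genes, Pmaip1 had the largest change in SmoM2 and PKI, and Bid in Gnas-eKO. Pmaip1 (ENSMUSG00000024521.8, chromosome 18), known as a p53 target and as the partner that marks Mcl1 for destruction, had 1.82, 2.27 and 1.68 CPM in PKI Con and 14.9, 18.7, 15.7 and 17.3 CPM in PKI BCC. Con libraries were uniformly low and BCC libraries uniformly high, an 8.71-fold rise (log2 change 3.12, SE 0.17, edgeR adjusted p 2.6e-05). In SmoM2 it had 3.77, 4.65 and 6.87 CPM in Con and 13.8, 15.4, 13.8 and 11.0 CPM in BCC, a 2.69-fold rise (log2 change 1.43, SE 0.21, edgeR adjusted p 0.000905). In Gnas-eKO it had 4.87, 7.43 and 5.16 CPM in Con and 8.08, 5.04, 10.3 and 10.6 CPM in BCC. BCC replicate 2 was again within the Con values, and the log2 change of 0.56 (95% interval −0.12 to 1.24) did not pass (edgeR adjusted p 0.345).

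The Pmaip1 effect in PKI exceeded that in SmoM2 by 1.70 (95% interval 1.11 to 2.29, edgeR adjusted p 0.000685) and that in Gnas-eKO by 2.56 (1.81 to 3.31, edgeR adjusted p 0.0024). Its levels in BCC were closer than its effects: 16.6 ± 1.69 CPM in PKI and 13.5 ± 1.86 CPM in SmoM2 (SD, n = 4 each). Con levels were 1.93 ± 0.309 CPM in PKI, below the 5.09 ± 1.60 CPM of SmoM2 and the 5.82 ± 1.40 CPM of Gnas-eKO (SD, n = 3 each). Con levels of different models come from different batches and were not tested against each other. PKI Con also had a lower sum of T cell markers, at 42.0 to 63.7 CPM against 118 to 152 CPM in SmoM2 Con and 143 to 152 CPM in Gnas-eKO Con, and this gap was mostly Thy1, at 30.1 ± 9.98 CPM in PKI Con against 120.7 ± 15.5 and 131.8 ± 3.58 CPM. Without Thy1 most of the markers went the other way. Cd3e, Cd3d, Cd3g, Trdc, Trbc1, Cd2 and Cd8a had higher means in PKI Con than in both other Con groups. Cd3e was at 1.86 CPM in PKI Con against 0.289 and 0.695 CPM, and Trdc at 3.88 CPM against 0.916 and 1.70 CPM. Trbc2 (9.25 CPM against 9.60 and 9.56 CPM), Trac (0.184 CPM against 0.355 and 0.227 CPM) and Cd4 were lower. Trac, Cd4 and Cd8a were at or below the level of 3 counts in PKI Con. The part of these cells in the Pmaip1 level was not tested. Of 17 genes tested within 1 Mb of Pmaip1 in PKI, 2 were called higher and 2 lower, a share of 11.8% higher against 18.7% of all genes.

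Bid (ENSMUSG00000004446.12, chromosome 6, 120891930 to 120916853), the link from death receptors and caspase-8 to mitochondria, had 4.11, 4.92 and 4.65 CPM in Gnas-eKO Con and 11.3, 8.36, 14.7 and 17.1 CPM in Gnas-eKO BCC. All BCC libraries were above Con, replicate 2 being the lowest. The 2.84-fold rise (log2 change 1.5, SE 0.27, edgeR adjusted p 0.0372) was the one call among the members in this model. It kept its size but lost its call without any 1 of the other 6 libraries (1.34 to 1.57, edgeR adjusted p 0.0522 to 0.184), and without BCC replicate 2 it was 1.67 (edgeR adjusted p 0.00358). In SmoM2, Bid had 4.41, 4.65 and 5.25 CPM in Con and 9.99, 8.11, 9.44 and 7.36 CPM in BCC, with no overlap and a 1.85-fold rise (log2 change 0.89, SE 0.16, edgeR adjusted p 0.00284). In PKI it had 3.90, 2.65 and 2.22 CPM in Con and 3.85, 3.56, 4.32 and 4.33 CPM in BCC. Only Con replicate 1 reached the BCC values, and the log2 change of 0.46 (95% interval −0.07 to 1.00) did not pass (edgeR adjusted p 0.158).

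The Bid effect was 1.04 lower in PKI than in Gnas-eKO on the log2 scale (95% interval −1.78 to −0.30), which did not pass (edgeR adjusted p 0.0774). It passed without Gnas-eKO BCC replicate 2 (−1.20, edgeR adjusted p 0.0226) and with the DESeq2 Wald test (−1.04, adjusted p 0.0443). Exons of Bid overlap 628 exon bases of Bcl2l13 on the other strand. Bcl2l13 was far more abundant than Bid, at 119 to 204 CPM over all libraries, and was not called in any model (log2 changes −0.05, −0.27 and 0.07). Reads of the shared bases could therefore weigh on the Bid count if strand was not used. Of 15 genes tested within 1 Mb of Bid in Gnas-eKO, 1 was called higher, a share of 6.67% against 1.46% of all genes.

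Bbc3 (ENSMUSG00000002083.13, chromosome 7, 16308393 to 16318205), a p53 target, had 13.9, 16.4 and 16.1 CPM in SmoM2 Con and 21.2, 19.1, 17.6 and 19.8 CPM in SmoM2 BCC. The log2 change was 0.35 (SE 0.11, edgeR adjusted p 0.0368), and the call was lost in 6 of 7 fits that each left out 1 library. It held only without BCC replicate 3 (0.40, edgeR adjusted p 0.0307), and the 6 others ranged from 0.27 to 0.39 with edgeR adjusted p of 0.0584 to 0.117. In Gnas-eKO Bbc3 had 14.1 to 15.8 CPM in Con and 10.6 to 21.9 CPM in BCC, and in PKI 11.0 to 14.4 CPM and 12.2 to 15.8 CPM. Neither passed (log2 changes 0.15 and 0.20, edgeR adjusted p 0.784 and 0.313). Bcl2l11 (ENSMUSG00000027381.16, chromosome 2, 128126038 to 128162547), whose protein binds all the protective members, had 16.4, 13.9 and 17.0 CPM in SmoM2 Con and 17.7, 17.7, 24.4 and 22.4 CPM in SmoM2 BCC. The groups did not overlap, yet its log2 change of 0.40 (SE 0.14) did not pass (edgeR adjusted p 0.0623). It passed there without BCC replicate 2 (0.47, edgeR adjusted p 0.0479). Its log2 changes in Gnas-eKO and PKI were 0.28 and 0.27 (edgeR adjusted p 0.495 and 0.147), with a call in PKI without Con replicate 1 (0.41, edgeR adjusted p 0.0441).

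**Figure D3:**
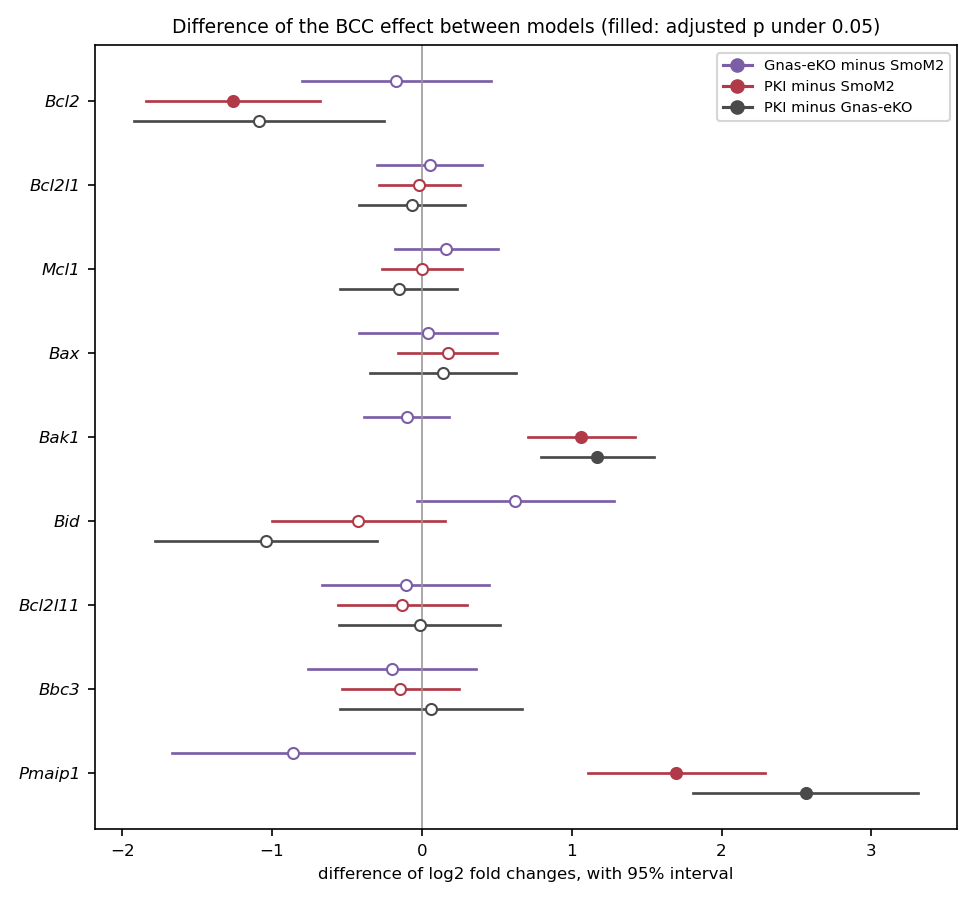
Difference of the BCC effect between 2 models (x axis, log2 scale) for each gene (y axis), with its 95% interval, by pair of models (colour) and filled where the edgeR adjusted p was under 0.05. Bak1 and Pmaip1 lay above 0 in both pairs with PKI, and Bcl2 lay at −1.26 for PKI minus SmoM2.

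The effects themselves were then compared between models. For PKI against SmoM2, 3 of the 9 members differed, Pmaip1 and Bak1 with a higher and Bcl2 with a lower effect in PKI, while 24.9% of 17261 genes differed. For PKI against Gnas-eKO, 2 differed, Pmaip1 and Bak1, both with a higher effect in PKI, while 9.06% of 17254 genes differed. For Gnas-eKO against SmoM2, 0 members differed by edgeR and by DESeq2, 1 (Pmaip1, −0.86) had an unadjusted p under 0.05, and 0.175% of 17151 genes differed. Each model enters 2 of the 3 pairs, so the pairs share libraries.

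Within Gnas-eKO BCC the 4 libraries did not share one profile. Replicate 2, with the Con-like Gli1 level, had the lowest Bid, Pmaip1, Bax, Bak1 and Bcl2l11 of the group (8.36, 5.04, 17.6, 25.7 and 18.3 CPM), while its Bcl2 of 32.0 CPM was above Con. Replicate 3, with the lowest Gnas of the group (51.2 CPM), had the lowest Bcl2, Bcl2l1 and Bbc3 (19.3, 38.9 and 10.6 CPM) and the highest Mcl1 and Bax (311 and 30.3 CPM). Replicates 1 and 4 had the highest Bcl2 (41.6 and 43.6 CPM), while Bcl2l1 was alike in replicates 1, 2 and 4 (50.4, 51.2 and 53.3 CPM). The coefficient of variation of Bcl2 was 32.6% in Gnas-eKO BCC and 6.02% in SmoM2 BCC, and that of Bid was 29.7% and 13.8%. Fibroblast markers summed to 248, 605, 147 and 341 CPM in Gnas-eKO BCC replicates 1 to 4, against 35.8 to 55.2 CPM in Con. Dcn was most of the BCC sum on average, at 246.7 ± 230.2 CPM (SD, n = 4). The part of these markers in the profiles was not tested.

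The balance between protective and death-promoting members was described as ratios of levels per exon kb, without a test. Bcl2 to Bax was 0.156 to 0.185 in SmoM2 Con and 0.233 to 0.309 in SmoM2 BCC, whereas PKI gave 0.139 to 0.181 for Con and 0.0558 to 0.137 for BCC. It was higher in every SmoM2 BCC library and lower in every PKI BCC library than in their controls. In Gnas-eKO it was 0.15 to 0.197 in Con and 0.109 to 0.34 in BCC, with replicate 3 below Con. In PKI, Mcl1 to Bak1 was 6.06 to 6.80 for Con and 2.43 to 3.28 for BCC. In SmoM2 it was 6.30 to 7.58 in Con and 6.05 to 6.96 in BCC. For Mcl1 to Pmaip1, PKI gave 83.8 to 113 for Con and 9.63 to 14.0 for BCC, and 30.4 to 52.6 and 13.4 to 18.8 in SmoM2. These are ratios of RNA and carry no measure of protein.

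**Figure D4:**
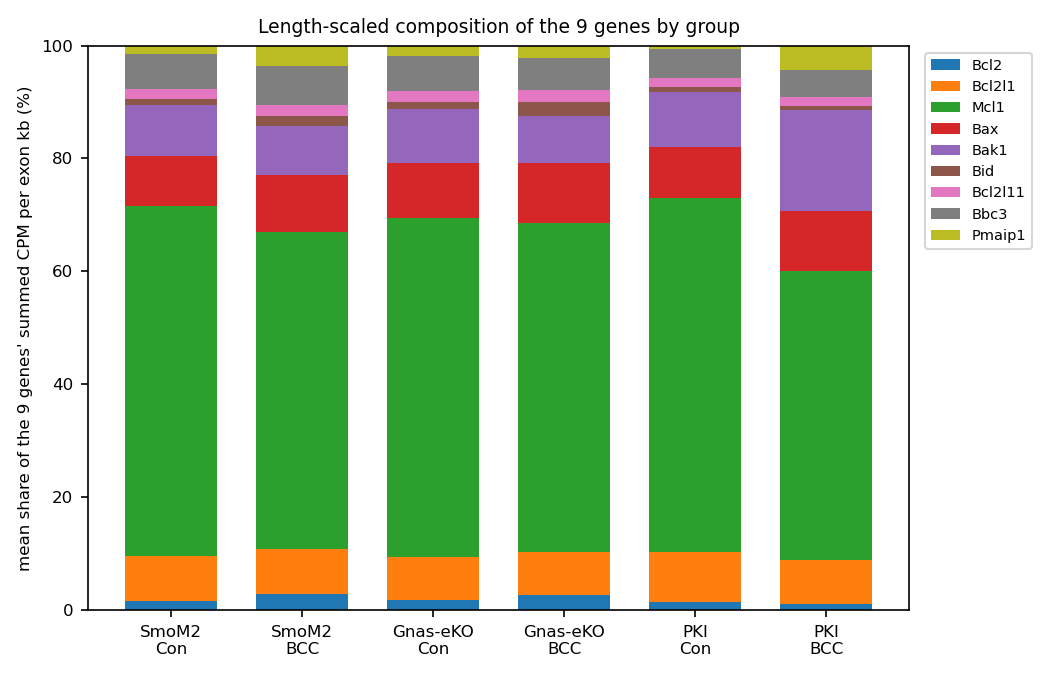
Mean share of each gene (colour) in the summed CPM per exon kb of the 9 genes (y axis, percent), by group (x axis). Mcl1 held 62.7% ± 1.13 (SD, n = 3) in PKI Con and 51.2% ± 2.45 (SD, n = 4) in PKI BCC, where Bak1 held 17.8% ± 1.98.

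In shares of the 9 genes' summed length-scaled level, Mcl1 held 62% ± 1.53 in SmoM2 Con and 56.1% ± 2.05 in SmoM2 BCC (SD, n = 3 and 4), and 60% ± 3.85 and 58.2% ± 3.38 in Gnas-eKO. A share falls when other members rise, and the Mcl1 level itself was not called in any model. Bak1 went from 9.76% ± 0.453 to 17.8% ± 1.98 in PKI. Pmaip1 went from 0.629% ± 0.117 to 4.33% ± 0.599 in PKI, and Bcl2 from 1.53% ± 0.0721 to 2.86% ± 0.0773 in SmoM2.

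The pathway around the members was followed in lists of other genes. Of the 5 other protective members, Bcl2l2 (Bcl-w) fell in PKI, with 93.1 ± 2.01 CPM in Con (SD, n = 3) against 64.5 ± 2.38 CPM in BCC (SD, n = 4), a log2 change of −0.52 (edgeR adjusted p 0.000683). In SmoM2 and Gnas-eKO it was the 1 gene of the list tested, with changes of −0.19 and −0.23 that edgeR and DESeq2 did not call. Bcl2a1b and Bcl2a1d, near-identical genes whose counts are uncertain and which leukocytes are known to express, rose in PKI from 0.181 ± 0.177 to 2.49 ± 1.26 CPM and from 0.252 ± 0.23 to 1.66 ± 0.761 CPM (edgeR adjusted p 0.00616 and 0.0128), beside the leukocyte markers given above. Both passed the low-count filter in PKI through the BCC group where they are high and were not tested in the other models, so their calls are a description. Of the 7 other effector and BH3-only genes, 2 of 6 tested rose in SmoM2, Bnip3 (log2 change 1.06, edgeR adjusted p 0.000398) and Bik (1.53, edgeR adjusted p 0.0443). Bik had 0.329 CPM in Con and 0.921 CPM in BCC and was not tested in PKI, so it passed the filter through the group where it is high and its call is a description. In Gnas-eKO 0 of 6 were called by edgeR and by DESeq2, with 2 at an unadjusted p under 0.05. In PKI 0 of 5 were called by edgeR and 1 by DESeq2, with 1 at an unadjusted p under 0.05.

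Downstream, of 13 genes of the apoptosome, the caspases and their inhibitors, 3 rose in SmoM2, and 5 rose and 3 fell in PKI. Such shares are to be read beside the 16.2% higher and 13.5% lower of all genes in SmoM2 and the 18.7% and 15.8% in PKI. In Gnas-eKO 0 were called by edgeR, against 2 by DESeq2 and 2 at an unadjusted p under 0.05. Casp6, an executioner caspase, rose in SmoM2 (log2 change 1.15, edgeR adjusted p 0.000279) and PKI (0.98, edgeR adjusted p 0.00294). Birc3, an inhibitor of apoptosis, rose in both too (0.72 and 0.76, edgeR adjusted p 0.00117 and 0.000858). Cycs and Apaf1, which form the apoptosome, rose in PKI (0.63 and 0.52, edgeR adjusted p 0.0188 and 0.0125). Casp9, the caspase recruited to it, fell in PKI (−0.41, edgeR adjusted p 0.00684), as did the inhibitors Birc2 and Xiap (−0.43 and −0.27, edgeR adjusted p 0.00395 and 0.0476), 3 genes named after their values were seen. Of the 8 genes of the death receptor arm, the receptor gene Fas rose in SmoM2 (1.28, edgeR adjusted p 0.00235) and the adaptor gene Tradd fell there (−0.59, edgeR adjusted p 0.00145). Cflar, which holds caspase-8 in check, fell in PKI (−0.49, edgeR adjusted p 0.0065). In Gnas-eKO 0 of 8 were called by edgeR, against 2 by DESeq2 and 2 at an unadjusted p under 0.05.

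Upstream, of 17 p53 targets other than the members, 4 rose and 2 fell in SmoM2, and 5 rose and 1 fell in PKI, with medians of −0.01 and 0.07. The 6 of 17 called in each model are near the share of all genes called in these models. In Gnas-eKO the median was 0.15, and 0 were called by edgeR, against 5 by DESeq2 and 6 at an unadjusted p under 0.05. Plk2 rose in SmoM2 and PKI (0.76 and 1.53, edgeR adjusted p 0.000665 and 0.000255). Cdkn1a, the p21 cell cycle inhibitor and a standard p53 readout, fell in SmoM2 from 309.5 ± 34.0 to 178 ± 23.6 CPM (−0.78, edgeR adjusted p 0.000718), while Pmaip1 and Bbc3 were called higher there. Sesn1 fell in PKI (−1.01, edgeR adjusted p 0.00041). Of 7 genes of the integrated stress response, another known inducer of Pmaip1, 2 rose and 2 fell in SmoM2, and 2 rose in PKI. In Gnas-eKO 0 were called by edgeR, against 2 by DESeq2 and 2 at an unadjusted p under 0.05. Ddit4 rose and Trib3 fell in SmoM2 (0.98 and −0.91, edgeR adjusted p 0.0131 and 0.0189). Asns fell in SmoM2 and rose in PKI (−0.42 and 0.39, edgeR adjusted p 0.00401 and 0.0187).

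**Figure D5:**
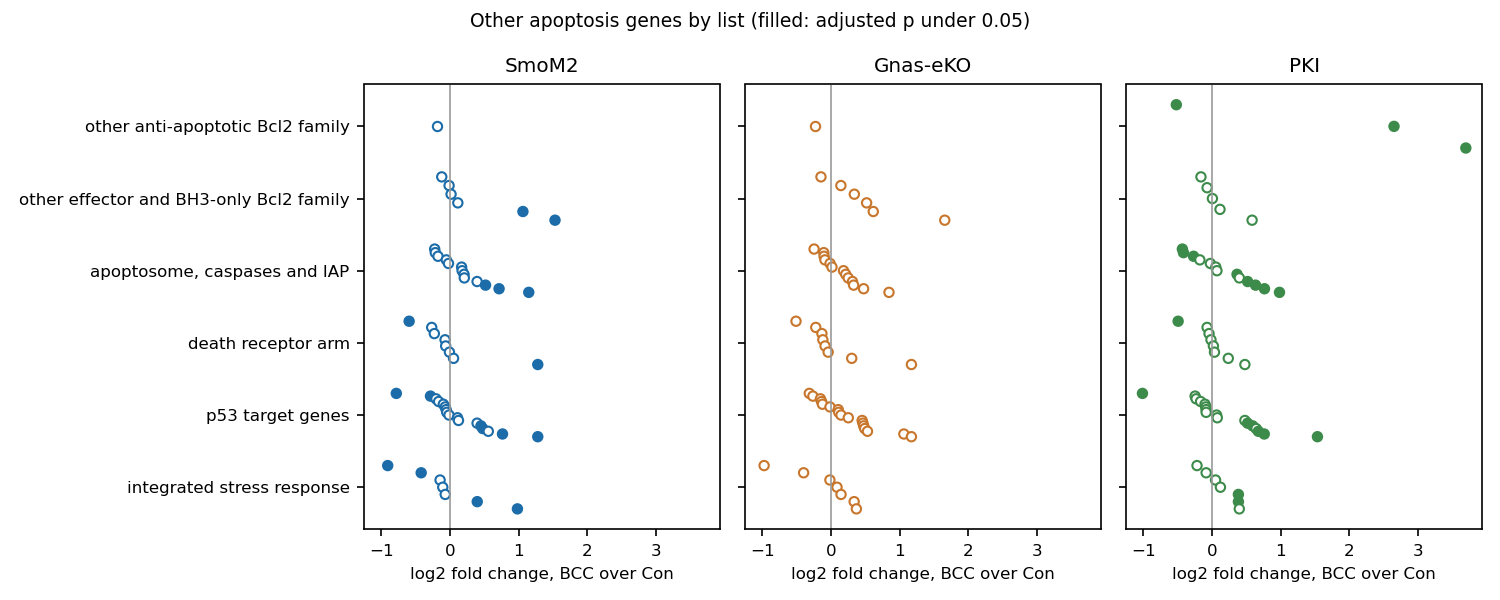
Log2 fold change of BCC over Con (x axis) for each tested gene of 6 lists (y axis) in the 3 models (panels), filled where the edgeR adjusted p was under 0.05. Most lists held called genes on both sides of 0 in SmoM2 or PKI, and none of these genes was called by edgeR in Gnas-eKO.

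Of 7 genes for Mcl1 turnover and for the mitochondrial channels that hold Bak1, 2 fell in SmoM2 and 2 rose in PKI. In Gnas-eKO 0 were called by edgeR and by DESeq2, with 1 at an unadjusted p under 0.05. Fbxw7, a ubiquitin ligase component that targets Mcl1, fell in SmoM2 (−0.64, edgeR adjusted p 0.000478), and the channel gene Vdac1 fell there too (−0.28, edgeR adjusted p 0.011). Vdac2, whose product binds Bak1, and Vdac3 rose in PKI (0.39 and 0.31, edgeR adjusted p 0.0107 and 0.0215). Of 5 Hedgehog genes, 4, 3 and 4 were called higher in the 3 models in that order. For Gli1 the log2 changes in the same order came to 4.88, 4.66 and 2.93 (edgeR adjusted p 0.000462, 0.0715 and 7.1e-05), beside the Bcl2 values of 1.10, 0.93 and −0.16. Within Gnas-eKO BCC, replicate 2 had the lowest Gli1 (9.65 CPM) with Bcl2 at 32.0 CPM, and replicate 3 the highest Gli1 (281 CPM) with the lowest Bcl2 of the group (19.3 CPM). Ptch1 had 933, 270.5, 315 and 827 CPM in replicates 1 to 4, beside Bcl2 at 41.6, 32.0, 19.3 and 43.6 CPM. Gli1 and Ptch1 thus ordered these libraries differently, and a link of either to Bcl2 was not tested.

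Genes whose pattern was most like that of a member were found by Pearson's r of log2 CPM over the 21 libraries, each centred on its model's mean, among 12030 genes. These values share the libraries and the Con to BCC contrast and are given as a description. Nearest to Bcl2 were Rai1, Crim1 and Cilk1 (r 0.954, 0.939 and 0.936). For Crim1 the log2 changes in SmoM2, Gnas-eKO and PKI came to 0.90, 0.54 and −0.25. Nearest to Bak1 were Cfl1, Krt6b and Ets1 (0.95, 0.95 and 0.945), of which Krt6b, a keratin of wounded and stressed epidermis, had a log2 change of 8.70 in PKI. Nearest to Pmaip1 were Lrrc4, Me2 and Rab31 (0.934, 0.932 and 0.92). Nearest to Bid were Mill1, Ace and Adgra3 (0.936, 0.923 and 0.919), and Ace had log2 changes of 3.27, 3.73 and 2.32 in the order above. Nearest to Bax were Ptcd2, Rnase2b and Puf60 (0.943, 0.93 and 0.928). For Bcl2l1 they were Ttyh2, Tnip1 and Plbd2 (0.925, 0.826 and 0.806), and for Mcl1 they were Cd9, Atf3 and B3gat3 (0.816, 0.789 and 0.775). For Bcl2l11 they were Bnc1, Sbk1 and Smarce1-ps1 (0.884, 0.875 and 0.867), and for Bbc3 they were Prrc2a, Ptprf and Pxn (0.905, 0.851 and 0.848). Between members, the highest r in the same centred values was that of Bak1 and Pmaip1, 0.844.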

How the data were processed

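The deposited table holds estimated counts per gene, not normalized, and 32.4% of its values are not whole. The submitters' processing notes name STAR 2.7.0f, cutadapt 1.18, Partek and build mm10, with no role or order. The authors also deposited a TMM-normalized signal table, whose values are each count times a factor per library plus a constant. It was used for 1 alternative. Counts were rounded and fitted in edgeR 4.0.16 (R 4.3.3): filterByExpr by group, TMM, robust quasi-likelihood test, BCC against Con in the 7 libraries of a model, with Benjamini-Hochberg adjustment over all genes tested. Differences between models were interaction contrasts on 14 libraries. SE is the absolute log2 fold change over the square root of F. CPM used TMM-scaled library sizes over the 21 libraries. Alternatives used DESeq2 1.42.0 and limma 3.58.1. The fit was also run on simulated data, with an outcome that is not given here. Exon lengths came from GENCODE M21 and upstream sequences from RefSeq (GRCm38.p6). In the table, 3 counts correspond to 0.134 to 0.189 CPM.

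The members, lists and tests were chosen with earlier results of these data known. By rule, named genes were the 9 members, up to 4 called genes with the largest change per list, and the 3 genes nearest in pattern to each member. Casp9, Birc2 and Xiap were named outside this rule, after their values were seen. Gnas, further cell type markers and genes that share exon bases with members were also named outside it. Libraries of a group all differed by more than counting noise (lowest chi-square over its degrees of freedom 8.93). No upstream sequence is shown for Bak1, Bcl2l1, Bbc3, Bcl2l11, Mcl1 and Pmaip1.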

Additional observations from a re-analysis of the deposited data

Results flagged for a closer look

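The tumour effect differed between models for 3 of the 9 genes, by the interaction test in edgeR. Against SmoM2, the effect in PKI was lower by −1.26 on the log2 scale for Bcl2 (adjusted p 0.00436), and higher by 1.06 for Bak1 (0.000517) and by 1.70 for Pmaip1 (0.000685). Against Gnas-eKO, the PKI effect was higher by 1.17 for Bak1 (edgeR adjusted p 0.00259) and by 2.56 for Pmaip1 (0.0024). In each case all 4 PKI BCC libraries lay on one side of PKI Con for Bak1 and Pmaip1, whereas Bcl2 overlapped between PKI groups. Model, day and batch cannot be told apart in these differences. Of 27 groups of 4 BCC libraries checked for a value far from the others by Dixon's test, 0 exceeded the critical value.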

How the results depend on the processing

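All settings cover the 9 genes. In SmoM2, 5 members were called, against 3 in one fit of all 21 libraries, 3 with the replicate block and 3 to 5 without 1 replicate (3 without Con replicate 1 or BCC replicate 1). In Gnas-eKO, 1 was called, against 2 with DESeq2 and 2 in one fit of all 21 libraries, both adding Bcl2, 0 with the replicate block, and 0 to 1 without 1 replicate. In PKI, 3 were called under each of the 6 alternatives on all libraries, and 3 to 4 without 1 replicate (4 without Con replicate 1 or BCC replicate 3). For PKI against Gnas-eKO, 2 effects differed, against 4 in one fit of all 21 libraries, which added Bcl2 and Bid. With DESeq2 3 differed, and without 1 replicate 2 to 3 (3 without Gnas-eKO BCC replicate 2 or 3). Over all genes, 267 were called in Gnas-eKO, against 1535 with DESeq2, 2644 in one fit of all 21 libraries, 135 with the replicate block and 0 to 1910 without 1 replicate. For PKI minus Gnas-eKO 1564 genes were called, against 925 with the replicate block, 2389 with DESeq2 and 673 to 2512 without 1 replicate, and for Gnas-eKO minus SmoM2 30, against 212 with DESeq2, 66 in one fit of all 21 libraries and 14 to 79 without 1 replicate. To check pairing, the log2 CPM of each library was centred on the mean of its own group. These deviations of same-numbered Con and BCC libraries correlated at −0.11 to −0.076 in SmoM2, 0.021 to 0.15 in Gnas-eKO and −0.054 to 0.24 in PKI. Correlations of differently numbered libraries were not computed, so these values cannot decide whether the numbers pair the samples. The main fits left pairing out, and the replicate block took it in. With the replicate block, Bid in Gnas-eKO was at 1.31 (edgeR adjusted p 0.0927), and Bax and Bbc3 in SmoM2 at p 0.0855 and 0.146. Signs turned for values that were not called. With the replicate block these were Bbc3 in Gnas-eKO (−0.0478), the Gnas-eKO minus SmoM2 difference of Bax (−0.0347), the PKI minus SmoM2 difference of Mcl1 (0.0786) and the PKI minus Gnas-eKO difference of Bcl2l11 (0.0151). With limma they were the same differences of Bax (−0.00258) and Bcl2l11 (0.0331), and with no filter that of Bcl2l11 (0.00853). The Mcl1 difference was 0.00357 with DESeq2 size factors, 0.00359 with DESeq2 and 0.00108 in one fit of all 21 libraries. Leaving out 1 replicate gave ranges of −0.0122 to 0.313 for Bbc3 in Gnas-eKO and −0.0205 to 0.134 for Mcl1 in PKI. For Gnas-eKO minus SmoM2 the ranges were −0.311 to 0.0237 (Bcl2), −0.0344 to 0.144 (Bcl2l1) and −0.104 to 0.148 (Bax). For PKI minus SmoM2 they were −0.107 to 0.0476 (Bcl2l1), −0.0643 to 0.0791 (Mcl1) and −0.222 to 0.0243 (Bcl2l11). For PKI minus Gnas-eKO they were −0.157 to 0.00335 (Bcl2l1), −0.116 to 0.183 (Bcl2l11) and −0.107 to 0.214 (Bbc3). The cause of these turns was not tested. Of 217 recomputed values of called results, 197 stayed called with the same sign and 20 were no longer called.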
